A study of Mus musculus with 6 samples.

Results

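The nuclear genes for oxidative phosphorylation were taken by symbol from the mouse annotation, as the subunit families of respiratory complexes I to V together with the *Ndufaf* assembly factors of complex I. Of 94 matching symbols, 3 lie on the X chromosome (*Ndufa1*, *Ndufb11* and *Cox7b*) and were left out, since only autosomes were analysed. The 91 remaining genes stood among 20780 autosomal protein-coding genes, of which 20333 lay in a 500 kb bin with data. All 91 had data. They comprised 36 genes of complex I, 4 of complex II, 9 of complex III, 17 of complex IV, 17 of complex V and 8 *Ndufaf* genes, classed by symbol alone. The rule used no measured value.

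Oxidative phosphorylation takes place on the inner mitochondrial membrane, where complexes I and II pass electrons through complex III to complex IV and the proton gradient so formed drives ATP synthesis by complex V. A few subunits are encoded in mitochondrial DNA, whereas all others are nuclear genes scattered over the chromosomes, so that genes from many loci supply each complex. Differentiating muscle raises its mitochondrial content, and several complex IV subunits have paralogs expressed mainly in heart and skeletal muscle.

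The series contained 6 dilution Hi-C libraries, made with HindIII, from C2C12 cells, an immortal myoblast line from C3H mouse thigh muscle. Hi-C ligates DNA ends that lie close together in the nucleus and so records which regions are near each other. There were 2 biological replicates in each of 3 conditions, grown from different source vials, and the authors pooled them before deposit, so that 1 matrix stood for each condition. Myoblasts (day 0) had proliferated for 72 h in medium with foetal bovine serum and were harvested before confluence. The other cultures were plated more densely and then moved to differentiation medium with less serum, from horse. Myotubes (day 3 of differentiation) received no AraC, and these cultures still held myoblasts. AraC-treated myotubes (day 7) had been given 10 µg/ml AraC, an inhibitor of DNA synthesis that kills dividing cells, from day 3 to remove myoblasts. The paper describes an apparent removal, though not all nuclei lay in myosin-positive cells. All groups came from the same line, with no further genetic change. Day and AraC changed together in the last group and cannot be told apart, and a shift within cells cannot be told apart from a changed mixture of cells. Plating density and medium differed between myoblasts and both later groups, and cannot be told apart from differentiation. Hi-C gives no expression levels, and expression data of these cells were not used here, so the cell types were not checked by marker genes. With no value per replicate, no test, SD or p-value was possible, and the values below are descriptions.

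Each deposited value was the correlation coefficient between the contact profiles of 2 bins of 500 kb on mm10. The first principal component (PC1) of each chromosome's block was computed, with its sign set so that gene-rich bins were positive. Bins above 0 were called compartment A, which generally holds open, active chromatin, and bins below 0 compartment B. A gene is called in A or in B below when its bin was, and each value belongs to the whole bin. The paper holds that changes in its somewhat smaller blocks could not be assigned to single genes. The SD of PC1 over autosomal bins differed between the matrices. Values compared between conditions are therefore scaled PC1, that is, PC1 divided by this SD. Triplets of values are ordered as myoblasts, then myotubes, then AraC-treated myotubes, and in that order the SD was 0.859, 1.61 and 1.36. A correlation coefficient does not show how many di-tags lie behind it. PC1 held a median of 39.45%, 71.3% and 63.4% of the variance over autosomes. In the paper, pooled depth differed between the conditions, and replicate matrices correlated least in myoblasts. Whether this affects the differences from myoblasts given below was not tested.

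The oxidative phosphorylation genes lay mostly in compartment A. In myoblasts, 65 of 91 were in A (71.4%, exact 95% binomial interval 61.0 to 80.4), beside 60.1% of all autosomal protein-coding genes. In myotubes the count was 64 (70.3%, interval 59.8 to 79.5), beside 58.3%. In AraC-treated myotubes it was 63 (69.2%, interval 58.7 to 78.5), beside 57.3%. These intervals cover counting error only, and genes in the same bin are not independent. The same shares of all genes are the background for the counts of each complex below.

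The 91 genes occupied 87 bins on 18 of the 19 autosomes. Only 3 bins held more than 1 of them. The bin chr10:80000001-80500000 held *Atp5d*, *Ndufs7* and *Uqcr11*, and chr9:108500001-109000000 held *Ndufaf3* and *Uqcrc1*. Genes in a shared bin have the same compartment value by construction.

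**Figure D1:**
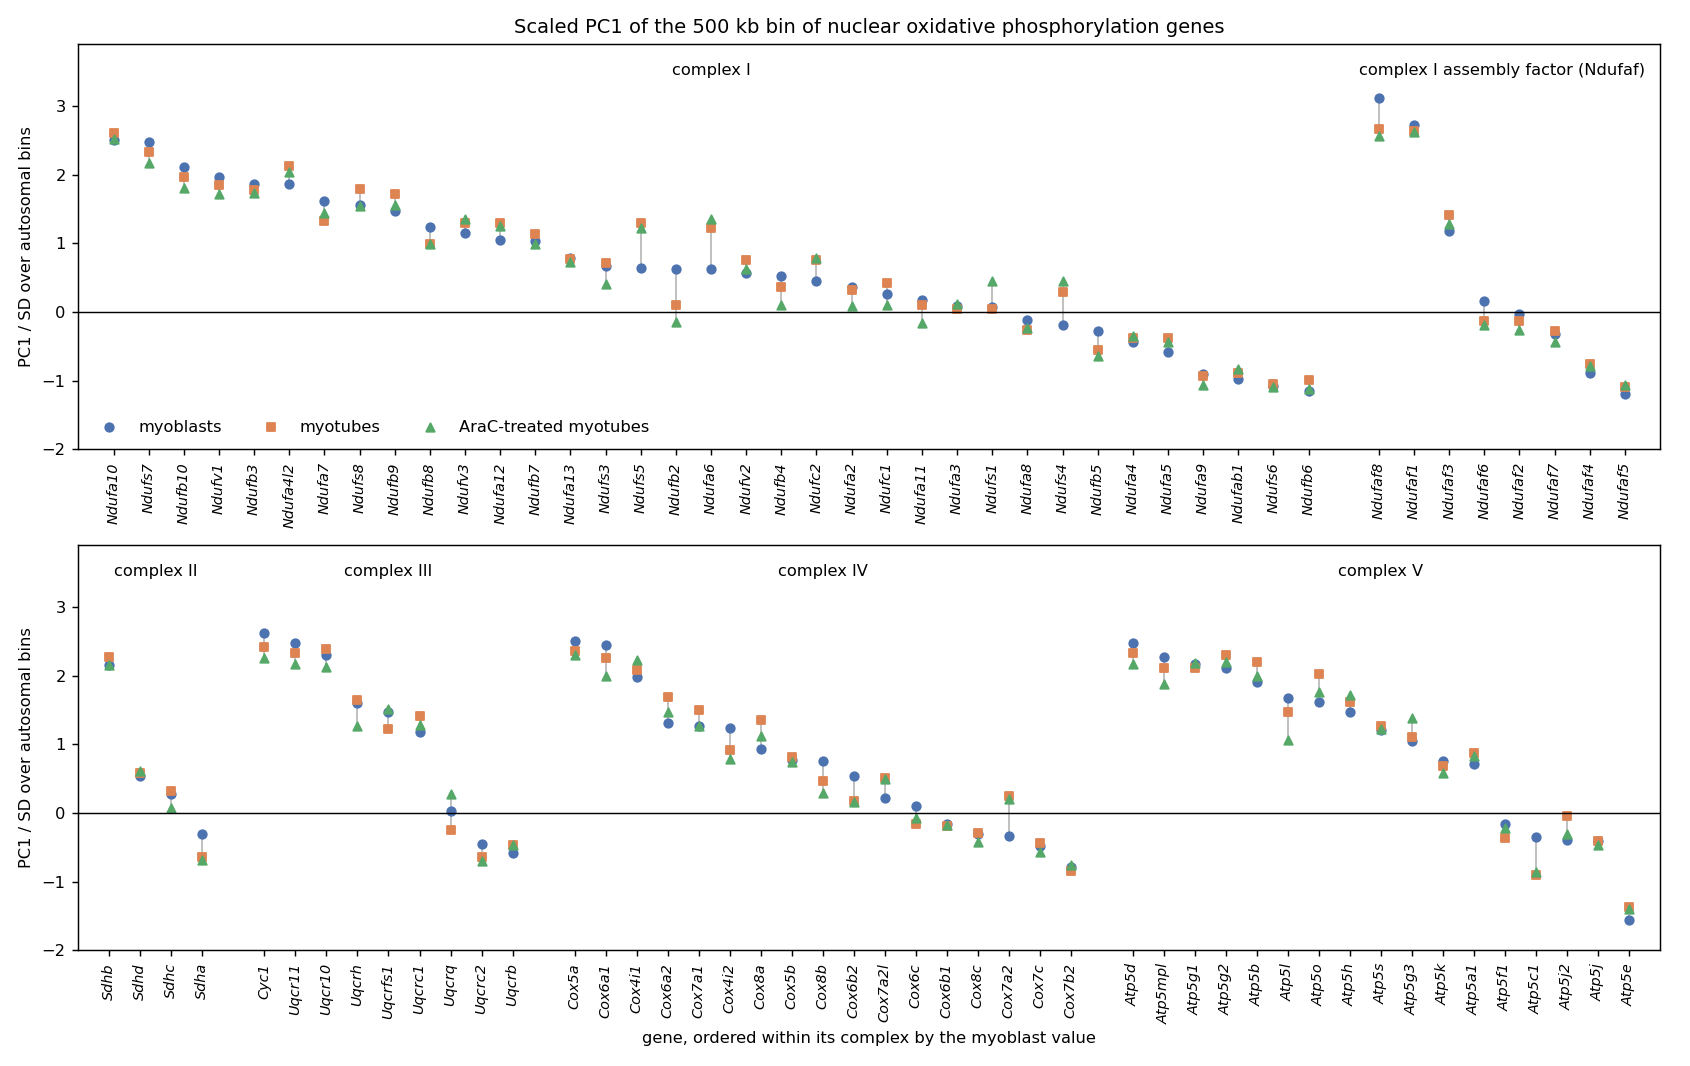
Scaled PC1 (PC1 divided by its SD over autosomal bins) of 90 of the 91 genes in the 3 conditions (symbols), grouped by complex and ordered by the myoblast value. Most points lie above 0 (compartment A), with *Ndufaf8* the highest in myoblasts (3.12) and *Atp5e* the lowest (-1.56).

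In total, 60 of the genes were in A in all conditions (65.9%, against 53.4% of all genes), 24 were in B in all conditions (26.4% against 35.8%) and 7 differed in sign (7.69% against 10.8%). Bins of the first class held a median of 13 protein-coding transcription start sites (TSSs), and bins of the second held 7.5.

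Gene density moved with this pattern. Member genes and all genes were set side by side in bins of like TSS number. In bins with 1 to 4 TSSs, 27.3%, 36.4% and 36.4% of 11 members were in A, against 37.0%, 36.1% and 34.5% of all genes. In bins with 5 to 9 TSSs the shares were 65.6%, 62.5% and 59.4% of 32 members, against 61.2%, 58.4% and 57.5%. In bins with 10 to 19 TSSs they were 78.6%, 75.0% and 78.6% of 28 members, against 66.1%, 65.0% and 65.4%. In bins with 20 or more they were 95%, 95% and 90% of 20 members, against 75.9%, 73.4% and 70.6%. The members thus stood above all genes in both classes with 10 or more TSSs in every condition. In bins with 5 to 9 TSSs the gap was small, with 21, 20 and 19 of 32 members in A. In the sparsest class they stood below all genes in myoblasts and slightly above in the later conditions.

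**Figure D2:**
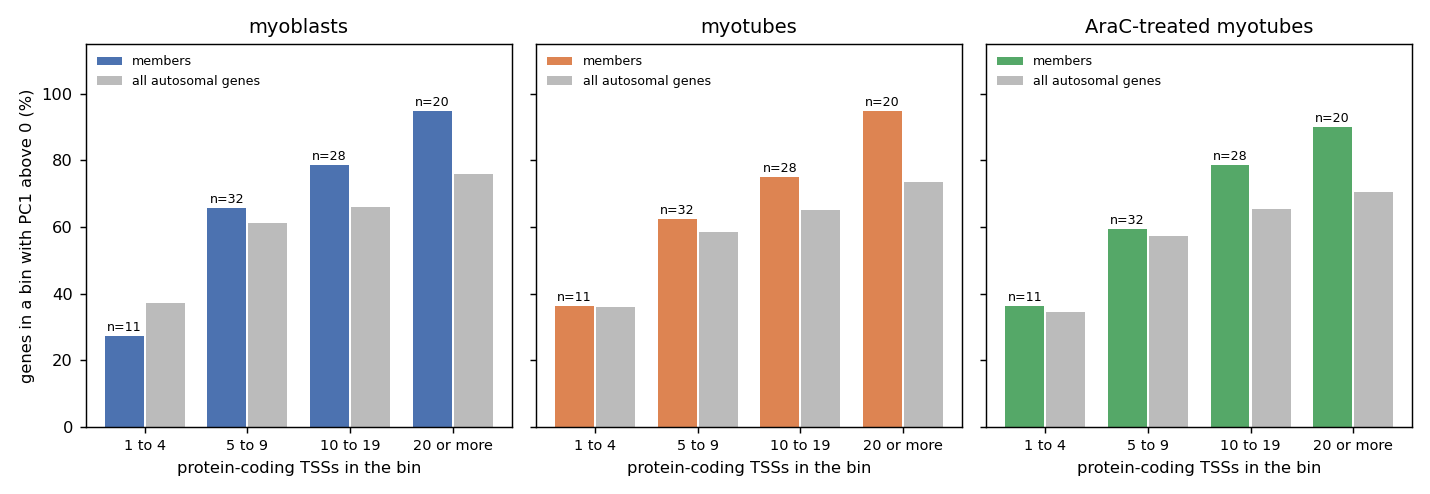
Percentage of genes in compartment A by number of protein-coding TSSs in the 500 kb bin, for the 91 oxidative phosphorylation genes and for all autosomal protein-coding genes, in each condition. The gap between members and all genes is widest in bins with 20 or more TSSs, where 19, 19 and 18 of 20 members are in A.

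The bins beside the members were less distinct. In the next bin upstream, 55%, 56.0% and 56.0% of members were in A, against 57.0%, 55.3% and 55.1% of all genes. In the next bin downstream the shares were 65.6%, 57.8% and 56.7%, against 57.2%, 55.5% and 55.4%.

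Complex I (NADH dehydrogenase) takes electrons from NADH. Of its 36 genes, 27, 28 and 26 were in A. *Ndufs1*, *Ndufs3*, *Ndufs7*, *Ndufs8*, *Ndufv1* and *Ndufv2*, core subunits of the arm that takes up electrons, were in A in all conditions. Among these, *Ndufs7* had the highest scaled PC1 in each condition (2.48, 2.33 and 2.16). *Ndufs1* was near 0 in myoblasts (0.0661) and myotubes (0.0430) and higher in AraC-treated myotubes (0.454). *Ndufa10*, an accessory subunit, was higher than any of these (2.5, 2.6 and 2.51). The genes counted with complex I by symbol that were in B in all conditions were *Ndufa4*, now regarded as a complex IV subunit, and the accessory subunits *Ndufa5*, *Ndufa8*, *Ndufa9*, *Ndufab1*, *Ndufb5*, *Ndufb6* and *Ndufs6*. *Ndufab1*, the mitochondrial acyl carrier protein, was at -0.975, -0.885 and -0.823. *Ndufb6* was lowest of the 8 in each condition (-1.14, -0.994 and -1.12), except that *Ndufs6* was lower in myotubes (-1.05).

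Complex II (succinate dehydrogenase) links the tricarboxylic acid cycle to the respiratory chain. *Sdha*, its flavoprotein and catalytic subunit, was in B in all conditions, at -0.301, -0.638 and -0.685. *Sdhb*, the iron-sulphur subunit, was well inside A (2.15, 2.27 and 2.16). The membrane anchors *Sdhc* (0.280, 0.326 and 0.0726) and *Sdhd* (0.540, 0.578 and 0.607) were in A at lower values.

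Complex III passes electrons from ubiquinol to cytochrome c, and 7, 6 and 7 of its 9 genes were in A. *Cyc1*, which encodes cytochrome c1, had a scaled PC1 of 2.62, 2.41 and 2.26. The Rieske iron-sulphur subunit *Uqcrfs1* was at 1.46, 1.23 and 1.51. *Uqcrb* (-0.585, -0.461 and -0.466) and *Uqcrc2*, a core protein of the complex (-0.452, -0.637 and -0.704), were in B throughout. The other core protein, *Uqcrc1*, was in A (1.17, 1.41 and 1.28).

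Complex V (ATP synthase) had 12 of 17 genes in A in each condition, and none changed sign. Sign changes were also few over all genes, at 4.59% to 9.61% between 2 conditions. The catalytic subunits of its F1 head were both in A, with *Atp5b* (1.91, 2.19 and 1.99) above *Atp5a1* (0.710, 0.871 and 0.825). The genes of the central stalk were spread widely. *Atp5d*, the delta subunit, was at 2.48, 2.33 and 2.16, *Atp5c1*, the gamma subunit, at -0.348, -0.901 and -0.863, and *Atp5e*, the epsilon subunit, at -1.56, -1.37 and -1.39. *Atp5e* had the lowest value of all 91 genes in each condition. The other members in B throughout were *Atp5f1*, *Atp5j* and *Atp5j2*.

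The *Ndufaf* genes encode proteins that help build complex I without remaining in it. Of these 8 genes, 4, 3 and 3 were in A. *Ndufaf8* (3.12, 2.67 and 2.56) and *Ndufaf1* (2.72, 2.63 and 2.62) had the highest values of all 91 genes in myoblasts, whereas *Ndufaf2*, *Ndufaf4*, *Ndufaf5* and *Ndufaf7* were in B throughout. *Ndufaf5* was the lowest of the 8 (-1.2, -1.09 and -1.06).

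Complex IV (cytochrome c oxidase) reduces oxygen to water, and 12 of its 17 nuclear genes were in A in each condition. *Cox6b1*, *Cox7b2*, *Cox7c* and *Cox8c* were in B throughout. The bin of *Cox6b1* held 33 TSSs, the most of any member in B throughout, and its values were close to 0 (-0.165, -0.192 and -0.168). *Cox5a*, a subunit in A, was at 2.51, 2.36 and 2.30, and *Cox5b*, a different subunit of the complex, was also in A at 0.774, 0.815 and 0.739.

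The paralogs allowed a comparison of related subunit genes at different loci. Of 17 genes in 7 paralog sets, 13 were in A in all conditions, beside 65.9% of all members and 53.4% of all genes. The heart and skeletal muscle isoforms *Cox6a2* (1.31, 1.70 and 1.47), *Cox7a1* (1.27, 1.50 and 1.27) and *Cox8b* (0.763, 0.469 and 0.297) lay in bins already in A in myoblasts. These bins held 13, 27 and 26 protein-coding TSSs, so the values are not of these genes alone. From myoblasts to myotubes the scaled PC1 of *Cox6a2* and *Cox7a1* was higher and that of *Cox8b* lower. The direction for *Cox8b* depended on the scaling, as its PC1 before division was 0.6555 in myoblasts and 0.7546 in myotubes. The more widely expressed partner had the higher value in 2 of these 3 sets, as *Cox6a1* was at 2.45, 2.26 and 1.99 and *Cox8a* at 0.927, 1.35 and 1.12. In the other set, *Cox7a2* was in B in myoblasts (-0.334) and in A in myotubes (0.240) and AraC-treated myotubes (0.205).

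Among the other sets, *Cox4i1* (1.99, 2.08 and 2.23) stood above *Cox4i2* (1.23, 0.915 and 0.786), an isoform best known from lung. The testis isoform *Cox6b2* was in A (0.542, 0.173 and 0.157), whereas its widely expressed partner *Cox6b1* was in B. *Cox7a2l*, which takes part in joining complexes into supercomplexes, was at 0.213, 0.515 and 0.495. *Cox8c*, another testis isoform, was at -0.305, -0.295 and -0.419. The 3 genes for the c subunit of the ATP synthase ring were all in A, with *Atp5g1* at 2.17, 2.12 and 2.19, *Atp5g2* at 2.11, 2.30 and 2.21, and *Atp5g3* at 1.05, 1.10 and 1.38. *Ndufa4* was in B (-0.439, -0.385 and -0.349) and *Ndufa4l2* in A (1.86, 2.13 and 2.04).

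**Figure D3:**
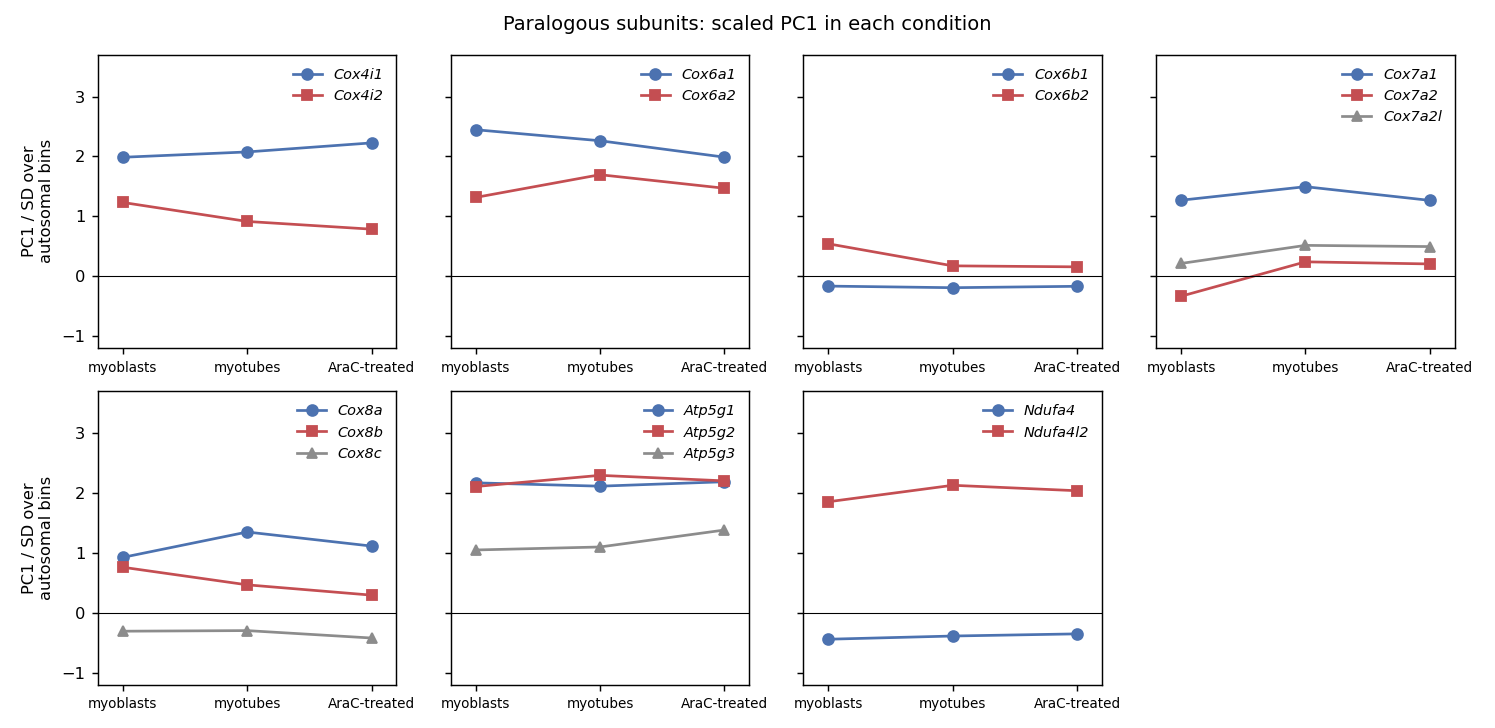
Scaled PC1 of the paralogous subunits in the 3 conditions, 1 panel for each of 7 sets. *Cox7a2* is the only paralog whose line crosses 0, from -0.334 in myoblasts to 0.240 in myotubes.

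The promoters were read to show what the loci share in sequence. RefSeq windows on GRCm38.p6, from 250 bases before to 50 bases after the start, matched 71 of the 91 genes by symbol, out of 32851 windows. NRF1, a transcription factor long linked to respiratory chain genes, binds a palindromic GC-rich element. Its core, written CGCANGCG and searched on both strands, was in 26 of 71 member windows (36.6%) and in 8.21% of all windows. The core was in 17 of 47 windows of genes in A throughout and in 8 of 20 windows of genes in B throughout. These 26 windows held 34 cores, and 6 windows held 2 or more. A match is a run of letters and not a measured binding site.

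The promoters below are shown to set genes of different compartment behaviour beside each other, and were chosen after their values were seen. Each run is the 150 bases before the start, 5′ to 3′ on the gene's strand. Capitals mark the NRF1 core and the E-box CAGCTG, a sequence that myogenic factors can bind. *Cox6a1* (chr5:115348959-115349108, minus strand) was in A, and *Ndufs5* (chr4:123718187-123718336, minus) had the largest positive difference of scaled PC1 from myoblasts to myotubes. *Ndufaf4* (chr4:24897933-24898082, plus) was in B, and *Cox8b* (chr7:140900447-140900596, minus) is the muscle isoform whose scaled PC1 was lower in myotubes.
Cox6a1: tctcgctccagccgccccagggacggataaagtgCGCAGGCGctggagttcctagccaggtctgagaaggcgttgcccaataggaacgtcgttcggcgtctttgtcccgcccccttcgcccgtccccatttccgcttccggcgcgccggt
Ndufs5: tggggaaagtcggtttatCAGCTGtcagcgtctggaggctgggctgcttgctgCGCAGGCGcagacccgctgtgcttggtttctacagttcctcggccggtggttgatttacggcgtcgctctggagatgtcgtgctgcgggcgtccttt
Ndufaf4: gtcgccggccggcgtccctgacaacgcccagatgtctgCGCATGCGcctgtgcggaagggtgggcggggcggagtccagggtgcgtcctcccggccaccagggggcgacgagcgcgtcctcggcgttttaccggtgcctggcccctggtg
Cox8b: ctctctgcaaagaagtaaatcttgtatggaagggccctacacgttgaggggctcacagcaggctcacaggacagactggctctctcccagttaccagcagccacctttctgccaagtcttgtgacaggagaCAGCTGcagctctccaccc

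The core sat close to the start in several genes of different compartments. For these the 8-base core is shown in capitals with 10 bases on each side. *Sdha*, in B throughout, had 3 cores, at 97, 54 and 9 bases before the start. *Ndufs6* and *Ndufa8* were also in B throughout, *Ndufb10* and *Uqcr11* were in A throughout, and *Ndufa11* was in B only in AraC-treated myotubes.
Sdha (chr13:74350320-74350347, minus strand): gtttacagggCGCAGGCGcaccaccact
Sdha (chr13:74350277-74350304, minus strand): gggcgtgttgCGCAGGCGcagaatcttc
Sdha (chr13:74350232-74350259, minus strand): cgactcggtgCGCAAGCGcagtctgtcg
Ndufs6 (chr13:73328480-73328507, minus strand): gactgctgtgCGCCTGCGccggcacttg
Ndufa8 (chr2:36049350-36049377, minus strand): tagagcagtgCGCTTGCGcgtcgctgga
Ndufa8 (chr2:36049330-36049357, minus strand): tcgctggagaCGCATGCGcagatggtac
Ndufb10 (chr17:24724432-24724459, minus strand): ctgcccactaCGCAGGCGcagctgtcac
Ndufb10 (chr17:24724407-24724434, minus strand): cacctttctgCGCAGGCGtagaggtccc
Uqcr11 (chr10:80406809-80406836, minus strand): atcgccttcaCGCATGCGctatacgtct
Ndufa11 (chr17:56717693-56717720, plus strand): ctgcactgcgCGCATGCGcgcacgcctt

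Of the other motifs, the YY1 letters AAGATGGC were in 9 of 71 windows (12.7%, against 2.75% of all windows), with *Ndufs4* and *Ndufs7* among them. The letters AAGGTCA, recognised by oestrogen-related receptors, were in 8 (11.3% against 4.72%), including *Ndufs5* and *Ndufb2*. The ETS letters CCGGAAGT were in 5 (7.04% against 3.89%). CCAAT was in 31 (43.7% against 37.4%) and TATAAA in 7 (9.86% against 13.6%). The E-box CAGCTG was in 6 (8.45% against 16.3%). At least 1 of the NRF1, YY1, AAGGTCA and ETS motifs was in 39 of 71 member windows, against 17.9% of all windows. The base composition of the windows was not compared.

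Few oxidative phosphorylation genes changed compartment during differentiation. Between myoblasts and myotubes, 5 of 91 changed sign (5.49%), beside 7.40% of all genes. *Ndufs4* and *Cox7a2* moved to A, and *Uqcrq*, *Cox6c* and *Ndufaf6* moved to B. Between myoblasts and AraC-treated myotubes, 6 changed sign (6.59%), beside 9.61% of all genes. Here *Ndufs4* and *Cox7a2* were again in A after being in B, and *Ndufb2*, *Ndufa11*, *Cox6c* and *Ndufaf6* were in B after being in A. Between myotubes and AraC-treated myotubes, 3 changed sign (3.30%), beside 4.59% of all genes, with *Ndufb2* and *Ndufa11* moving to B and *Uqcrq* to A. The comparisons share conditions, so a gene named in more than 1 is not independent evidence.

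*Ndufs4* encodes an accessory subunit of the electron input module of complex I, and its scaled PC1 was -0.188, 0.295 and 0.446. It was thus in B in myoblasts and in A in both later conditions. *Ndufb2*, an accessory subunit of the membrane arm, ran the other way, from 0.628 through 0.0974 to -0.148. *Ndufa11*, also of the membrane arm, was at 0.17, 0.101 and -0.166. The values of *Uqcrq*, a small subunit of complex III, were 0.0281, -0.243 and 0.278, and those of *Cox6c* were 0.0976, -0.163 and -0.0668. The assembly factor *Ndufaf6* was at 0.156, -0.134 and -0.183.

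Most of these 7 genes were near 0 in at least 1 condition. When only bins beyond the 20th percentile of absolute PC1 on their chromosome were counted, no member changed sign in any comparison, over 68, 64 and 66 members. The corresponding shares of all genes were 0.325%, 0.910% and 0.0321%. All 7 kept their signs when PC1 was computed from odd or even partner bins alone. For 5 of 7 the component from other chromosomes gave the same signs, the exceptions being *Ndufb2* in myotubes and *Cox6c* in myoblasts.

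Differences in scaled PC1 were small for most members. From myoblasts to myotubes, 49 of 91 were higher (53.8%), beside 49.4% of all genes, and the median difference was 0.0383 for members and -0.00429 for all genes. Its direction and size did not hold under all settings, since it was -0.0220 in the next bin downstream, 0 as a rank, and 0.00876 beside 0.00504 for all genes with scaled columns. From myoblasts to AraC-treated myotubes, 41 were higher (45.1%), beside 44.2%, with medians of -0.0347 and -0.0516. From myotubes to AraC-treated myotubes, 24 were higher (26.4%), beside 40.3%, with medians of -0.0859 and -0.0356. The last comparison was thus the one in which the members' share stood farthest from that of all genes. The share was below that of all genes in each group, though several groups are small. In complexes I, II and III, 11 of 36, 1 of 4 and 2 of 9 genes were higher. In complexes IV and V, 4 of 17 and 5 of 17 were higher, as was 1 of 8 *Ndufaf* genes. Related sets were also below, with 3 of 13 tricarboxylic acid cycle genes and 5 of 16 regulators of mitochondrial genes higher. So were 14 of 39 other assembly factors and 28 of 78 mitochondrial ribosomal protein genes. Above all genes stood cytosolic ribosomal protein genes (37 of 88, 42.05%) and cytochrome c (1 of 2). Gene density was not matched in these shares. For bins in A in all conditions, medians of scaled PC1 are given for myotubes, then AraC-treated myotubes. With 10 or more TSSs they were 1.616 and 1.439 in 35 member bins, and 1.842 and 1.708 in 359 others. At any TSS number they were 1.341 and 1.317 in 56 member bins, and 1.196 and 1.22 in 1422 others. Whether the members' share differs from that of genes in equally dense bins was not tested.

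**Figure D4:**
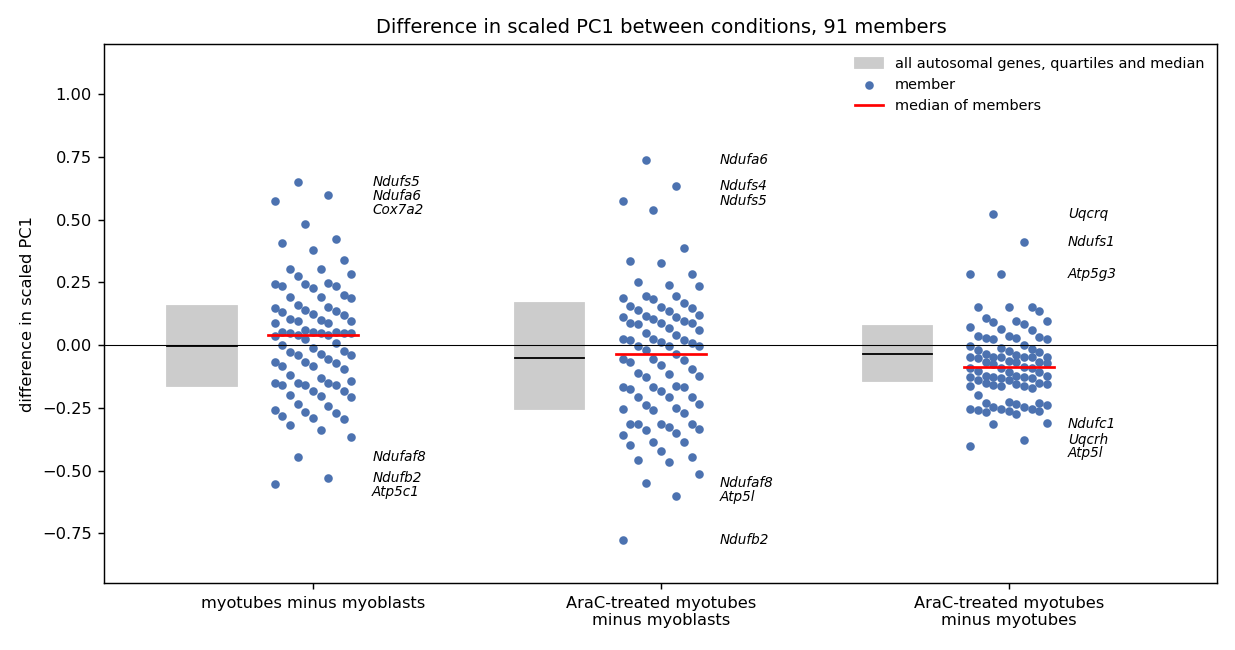
Difference in scaled PC1 between conditions (vertical axis, no unit) for each of the 91 genes (points), with the median of members as a red line and the quartiles and median of all autosomal genes as grey boxes with a black line. In AraC-treated myotubes against myotubes, 24 of 91 members are above 0.

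The largest differences belonged to a few named genes. From myoblasts to myotubes, the largest positive differences were those of *Ndufs5* (0.649), *Ndufa6* (0.6), *Cox7a2* (0.574), *Ndufs4* (0.483) and *Cox8a* (0.424). *Ndufs5* and *Ndufa6*, both accessory subunits of complex I, were in A already in myoblasts (0.640 and 0.622) and stood higher in myotubes (1.29 and 1.22). The largest negative differences were those of *Atp5c1* (-0.553), *Ndufb2* (-0.531), *Ndufaf8* (-0.447), *Cox6b2* (-0.368) and *Sdha* (-0.337). *Atp5c1* and *Sdha* thus went further into B. For *Ndufaf8* the direction depended on the scaling, as its PC1 before division was 2.68 in myoblasts and 4.29 in myotubes.

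From myoblasts to AraC-treated myotubes, *Ndufa6* (0.736), *Ndufs4* (0.634), *Ndufs5* (0.575), *Cox7a2* (0.539) and *Ndufs1* (0.388) had the largest positive differences. The largest negative ones were those of *Ndufb2* (-0.776), *Atp5l* (-0.602), *Ndufaf8* (-0.551), *Atp5c1* (-0.515) and *Cox8b* (-0.466). *Atp5l*, the g subunit of ATP synthase, remained in A (1.67, 1.47 and 1.07). The direction for *Atp5l* and *Ndufaf8* depended on the scaling. Before division, PC1 in myoblasts and AraC-treated myotubes was 1.434 and 1.448 for *Atp5l*, and 2.68 and 3.48 for *Ndufaf8*.

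From myotubes to AraC-treated myotubes, *Uqcrq* (0.522), *Ndufs1* (0.411), *Atp5g3* (0.283), *Uqcrfs1* (0.283) and *Atp5f1* (0.152) had the largest positive differences. *Atp5l* (-0.404), *Uqcrh* (-0.377), *Ndufc1* (-0.313), *Ndufs3* (-0.310) and *Cox6a1* (-0.275) had the largest negative ones. All 5 of the latter stayed in A.

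The contact profile of a bin, that is, its coefficients with the other bins of its chromosome, gives a comparison that needs no PC1. The median correlation of members' profiles was 0.907 for myoblasts against myotubes, 0.866 for myoblasts against AraC-treated myotubes and 0.962 for the myotube conditions against each other. For all genes it was 0.900, 0.864 and 0.958. In the first comparison, 3 members had a profile correlation below 0 (3.25% of all genes), namely *Ndufb2* (-0.420), *Cox7a2* (-0.4115) and *Ndufs4* (-0.0815). In the second, 5 did (4.78% of all genes), namely *Ndufb2* (-0.544), *Cox7a2* (-0.474), *Ndufb4* (-0.180), *Ndufs1* (-0.179) and *Ndufs4* (-0.124). In the third, only *Ndufs1* did (-0.400, beside 0.649% of all genes). Neighbouring bins share ligation products, so their coefficients are not independent.

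Member bins on different chromosomes had slightly higher coefficients with each other than autosomal bins at large. Over 3543 such pairs of member bins the mean coefficient was 0.0317, 0.0417 and 0.0289, against 0.00526, 0.00743 and 0.00306 over all pairs of autosomal bins. In units of the SD of all pairs, the members stood 0.592, 0.385 and 0.353 above the mean of all. Bins of other assembly factors of the respiratory chain were lower, at 0.494, 0.357 and 0.348 SD. Bins of cytosolic ribosomal protein genes stood 1.00, 0.708 and 0.702 SD above, and bins of mitochondrial ribosomal protein genes 0.811, 0.611 and 0.579 SD. The oxidative phosphorylation genes thus stood below the ribosomal protein genes in each condition. In myotubes and AraC-treated myotubes they hardly differed from the other assembly factors. Bins of regulators of mitochondrial genes (0.680, 0.532 and 0.593 SD) and of tricarboxylic acid cycle genes (0.870, 0.522 and 0.515 SD) stood higher than the members. The members' value differed with gene density. The 44 member bins with 10 or more TSSs stood at 1.47, 1.17 and 1.035 SD, above all bins of that density (0.788, 0.552 and 0.557 SD). The 43 member bins with fewer TSSs stood at 0.148, 0.00846 and 0.0171 SD.

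The mean was carried by part of the pairs. Of the member pairs, 62.2%, 58.1% and 54.6% were above 0, beside 57.1%, 58.4% and 56.1% of all pairs. The 56 member bins in A in all conditions had means 1.97, 1.74 and 1.61 SD above that of all pairs, against 1.40, 1.23 and 1.28 SD for all 1478 such bins. Among always-A bins with 10 or more TSSs the order turned, at 2.54, 2.16 and 1.93 SD for 35 member bins and 2.83, 2.39 and 2.32 SD for all 394.

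Across the 87 member bins, the mean coefficient with other members followed compartment strength, with Pearson's r against scaled PC1 of 0.978, 0.983 and 0.981. Against GC content r was 0.640, 0.613 and 0.591, against the number of TSSs 0.427, 0.407 and 0.38, and against the number of HindIII sites -0.538, -0.521 and -0.495. These are descriptions over bins of the same matrices, which share libraries, depth and base composition.

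**Figure D5:**
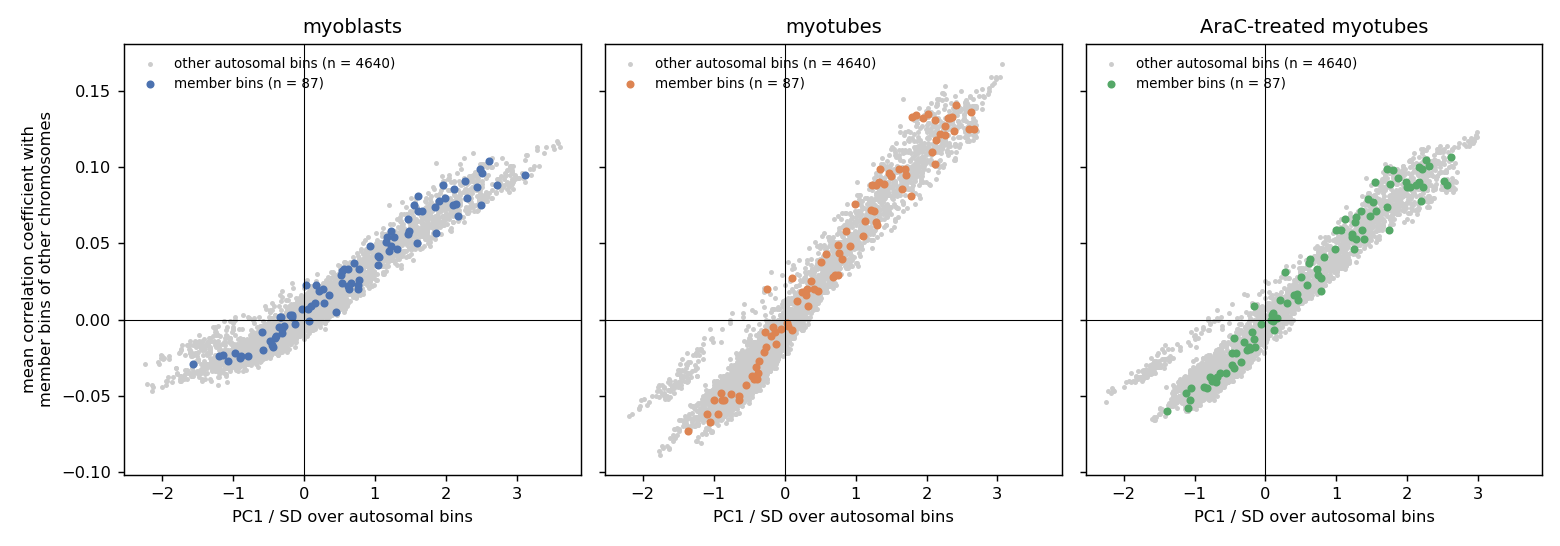
Mean correlation coefficient of each autosomal bin with the member bins of other chromosomes (vertical axis) against its scaled PC1 (horizontal axis), 1 panel per condition, with the 87 member bins coloured and the 4640 other autosomal bins in grey. The member bins lie within the cloud of other bins and follow scaled PC1 (r of 0.978, 0.983 and 0.981).

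Among the 21 comparisons within and between the complexes and the *Ndufaf* genes, the pairs within complex III had the highest mean in each condition, at 0.0820, 0.109 and 0.0866 over 34 pairs. Pairs within complex V had means of 0.0567, 0.0788 and 0.0549, and pairs between complexes III and V 0.0631, 0.0880 and 0.0666. Pairs within complex I (0.0236, 0.0308 and 0.0190) and within complex IV (0.0240, 0.0341 and 0.0212) were lower. Within complex II, where *Sdha* was in B, the 6 pairs had means of 0.0112, -0.0155 and -0.0216. The 9 complex III genes also had the highest median scaled PC1 of these groups (1.46, 1.41 and 1.28), beside 0.594, 0.735 and 0.539 for complex I. Whether the ranking of pairs goes beyond compartment strength was not tested.

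The bin of *Cyc1* had the highest mean coefficient with other member bins in myoblasts (0.104) and myotubes (0.141), and that of *Ndufaf1* in AraC-treated myotubes (0.107). The bin of *Atp5e* had the lowest in every condition (-0.0294, -0.0731 and -0.0603), and those of *Ndufs6* and *Ndufa9* were also among the lowest 3. Among the highest pairs, the bin of *Atp5d*, *Ndufs7* and *Uqcr11* on chromosome 10 and that of *Cyc1* on chromosome 15 had coefficients of 0.458, 0.611 and 0.464. *Cox5a* and *Cyc1* had 0.408, 0.6 and 0.496, and *Cyc1* and *Ndufv1* had 0.404, 0.608 and 0.493. The lowest pairs all held *Atp5e*, with *Ndufv1* in myoblasts (-0.203), *Ndufs8* in myotubes (-0.288) and *Cyc1* in AraC-treated myotubes (-0.222).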

How the data were processed

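Dilution Hi-C libraries were made from 3 conditions of C2C12 cells, 2 biological replicates each. Per the labels and the methods, the authors mapped reads with Bowtie, filtered di-tags, pooled the replicates and used HOMER to normalise contacts in 500 kb bins. The deposited score in each matrix cell is the correlation coefficient of 2 bins' normalised contact profiles (mm10). The submitters' processing notes name both mm10 and GRCh38 as builds, and the bins fitted mm10. All columns belonged to a condition (0 were left out). The depth behind a single coefficient is unknown, though the paper reports pooled depths that differ between the conditions.

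PC1 was computed per autosome and condition from the columns of the chromosome's block, centred and not scaled (Python 3.11.15, NumPy 2.4.6, SciPy 1.17.1). Each gene took the value of the bin with its TSS. Calculations were tested on simulated matrices. The genes and lists were chosen with earlier results of these data known. Named genes were those below 0 or changing sign in any condition, the 5 largest rises and falls of each comparison, the 3 highest and lowest bins and the 3 highest pairs of each condition between chromosomes, the paralogs, the core subunits, genes sharing a bin, and the regulators. *Ndufa10*, the lowest pairs and the printed promoters were chosen after their values were seen. *Cox5a* and *Cox5b*, first listed as paralogs, are different subunits and were not compared as such. Values of 1 gene are not reported here by name, though it is included in the counts. Alternatives were other partner bins, other scalings, neighbouring bins and other sets of bins.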

Additional observations from a re-analysis of the deposited data

How the results depend on the processing

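No paired analysis was possible because the replicates were pooled before deposit, and for the same reason no replicate could be left out. Of 126 alternative values, 95 stayed within 1.5 times the value reported, 29 moved further and 2 reversed. The share of members in A stayed within that range in all 30, but the range is wide for a share of this size. The difference from all genes was less stable. It was 11.3, 12.0 and 11.9 percentage points as reported, and -2.01, 0.711 and 0.900 points in the next bin upstream. The cause of the moves below was not tested. The share changing compartment was 0%, 0% and 0% beyond the 20th percentile of absolute PC1, and 6.59% in the next bin upstream for AraC-treated myotubes against myotubes.

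The median difference of scaled PC1 changed sign under 1 setting in each comparison with myoblasts. For AraC-treated myotubes against myotubes it was below 0 under every setting run, and so was the median of all genes. For myotubes against myoblasts it was 0.0109 from other autosomes only, 0.00876 with scaled columns, -0.0220 in the next bin downstream, 0.01999 with each chromosome's own SD, 0 as a rank and 0.646 with PC1 not divided. For AraC-treated myotubes against myoblasts these were -0.0804 from other autosomes, -0.0542 with scaled columns, -0.0199 from even partner bins, -0.0214 with each bin counted once, -0.0214 without *Ndufaf* genes, -0.00523 upstream, -0.0532 with the chromosome's SD, -0.784 as a rank and 0.360 with PC1 not divided. For AraC-treated myotubes against myotubes they were -0.0477 downstream, -0.0435 upstream, -1.13 as a rank and -0.322 with PC1 not divided. Not dividing PC1 shifted the median of all genes to 0.299, 0.145 and -0.119 in these comparisons.

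The mean coefficient between chromosomes was 0.0827, 0.143 and 0.113 over bins in A only. As a median over pairs it was 0.0138, 0.0177 and 0.00898, beside 0.00573, 0.0159 and 0.0101 for all pairs, so that in AraC-treated myotubes the members lay below all pairs. The next bin upstream gave 0.0233 for myotubes and 0.0175 with AraC.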

Other observations

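Genes that work with the respiratory chain were placed in the same way. Cytochrome c, which carries electrons from complex III to complex IV, has a somatic and a testis gene, and they ran in opposite directions. *Cycs*, the somatic gene, had scaled PC1 values of 0.722, -0.0648 and -0.160, in the order used above. *Cyct*, the testis gene, was at -0.0737, 0.388 and 0.842. Each has 1 value per condition, so the difference was not tested.

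Of 16 regulators of mitochondrial genes, 11 were in A in each condition (68.75%, beside 60.1%, 58.3% and 57.3% of all genes). None changed sign, beside 4.59% to 9.61% of all genes between 2 conditions. *Esrrg*, *Gabpa*, *Ppargc1a*, *Tfam* and *Tfb1m* were in B throughout. *Gabpa* lies in the same bin as *Atp5j*, and so has the same value. Of 39 other assembly factors, 27, 27 and 25 were in A (69.2%, 69.2% and 64.1%). Of 13 tricarboxylic acid cycle genes, 10, 10 and 9 were in A (76.9%, 76.9% and 69.2%), with *Dld* moving to B in AraC-treated myotubes. Among ribosomal protein genes, 55, 54 and 53 of 78 mitochondrial and 68, 67 and 65 of 88 cytosolic ones were in A. The mitochondrial shares (70.5%, 69.2% and 67.95%) were close to those of the members (71.4%, 70.3% and 69.2%). The cytosolic shares (77.3%, 76.1% and 73.9%) were higher.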
